A study of Mus musculus with 14 samples.

Results

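Chromatin accessibility in livers of floxed mice was compared between a high-fat diet (HFD) batch and a chow batch. The comparison covers intervals present in both deposited tables, matched one to one where they overlapped by at least 50%. This left 73945 intervals, 83.8% of the 88203 in the chow table and 69.9% of the 105801 in the HFD table. Of the 14 libraries in the series, 7 entered the comparison: 4 floxed livers on HFD and 3 floxed livers on chow. All 7 came from female mice with a floxed Matr3 gene, which encodes the nuclear matrix protein matrin-3, and without the Albumin-Cre transgene that deletes it in hepatocytes of their littermates. Neither group is therefore wild type at Matr3, and the labels give no strain. Both groups were kept on their diet for 16 weeks, starting at an age of 7 weeks. The HFD group was fed fat at 60 kcal% and the chow group normal chow. Nuclei were taken from 50 mg of frozen liver for ATAC-seq, in which a transposase cuts and tags open DNA. Titles carry a number for each female, and a library is therefore taken as 1 animal.

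Each diet has a table, a sequencing depth and possibly a feeding state of its own. The protocols describe a fast of 12 h before the HFD livers were taken. For the chow livers, no feeding state or hour of collection was found in the labels. Diet cannot be told apart from these, and every difference below is one between the HFD batch and the chow batch.

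The liver stores, burns and exports fat, and it switches between these tasks with feeding, fasting and the time of day. In fasting, the nuclear receptor PPARα drives genes that oxidise fatty acids and make ketone bodies. In the fed state, insulin and the SREBP factors drive synthesis of fatty acids and cholesterol. The receptors CAR and PXR control genes that clear foreign compounds, bile acids and steroids. The circadian clock is a feedback loop in which CLOCK or NPAS2 pairs with BMAL1 (encoded by Arntl), binds the E-box CACGTG, and drives Per, Cry and output genes such as Dbp, Tef and Ciart.

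Reads within matched intervals numbered 15439853 to 29996461 per chow library and 6364447 to 8558453 per HFD library. The log2 accessibility of libraries correlated at 0.868 to 0.942 within a group and at 0.813 to 0.873 between groups, across intervals. The first principal component (36.6% of the variance) separated the batches. On the second (21.4%) the shallowest library of each batch, chow 2 (-57.1) and HFD 3 (-57.6), stood apart from the other 5 (2.31 to 44.3). Levels of intervals are counts per library scaled by its reads in matched intervals (CPM). Levels of loci are scaled by the reads in matched intervals assigned to genes, so the 2 kinds of CPM differ in scale. Per-library values are given in the order of the library numbers, and fold changes are log2 of the HFD batch over the chow batch. A value in brackets after a gene name is its log2 fold change, and one after a fold change or after a library left out or another setting is the edgeR adjusted p. An interval or locus is called when its edgeR adjusted p is below 0.05. A locus sums every matched interval whose closest protein-coding gene lies no more than 50000 bp away. Accessibility is not expression, and in bulk liver fewer cells of a type and less accessibility per cell cannot be told apart.

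The 2 batches differed at intervals in both directions. The edgeR quasi-likelihood test called 5491 of 73945 intervals (7.43%), 2551 higher (3.45%) and 2940 lower (3.98%) in the HFD batch. The called intervals had a median log2 fold change of 0.80 upward and -0.79 downward. A change beyond 1 on the log2 scale was seen at 530 called intervals upward and 702 downward, and one beyond 2 at 14 and 52. The groups did not overlap at 2374 (93.1%) of the higher and 2677 (91.1%) of the lower intervals, against 19.4% of all intervals (9.49% upward and 9.9% downward). By locus, 2032 of 15304 were called (13.3%), 1101 higher (7.19%) and 931 lower (6.08%), and the groups did not overlap at 24.5% of loci (12.6% upward and 11.9% downward). In the lowest of 5 equal classes of intervals by level, 1.2% were called higher and 0.784% lower, against 4.12% and 6.81% in the highest. Loci of many lists hold more intervals than loci at large, such as 224 over 22 clock loci, against 68132 over 15304. The shares of all loci set beside lists below are not matched for locus size or level. The counts moved with single livers. The interval count was 3394 without chow 1, 3434 without chow 3, 2996 without HFD 1, 2957 without HFD 2 and 3291 without HFD 4, and the locus count was 1112, 1342, 946, 1011 and 1213 in the same order. Without chow 2 and HFD 3 together, a fit that was not planned beforehand, 7145 intervals and 2951 loci passed. With the libraries scaled on gene ends of housekeeping genes, 64.5% of interval calls and 73.7% of locus calls were higher, against 46.5% and 54.2% here.

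**Figure D1:**
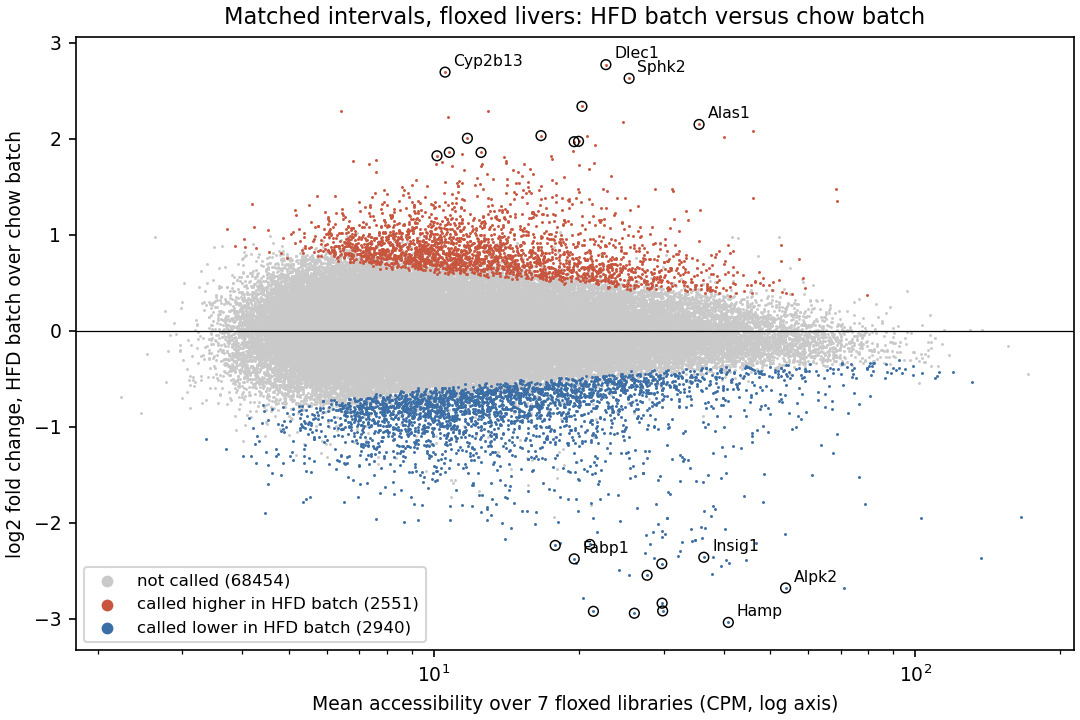
Each of the 73945 matched intervals by its mean accessibility over the 7 floxed libraries (CPM, log axis) and its log2 fold change, HFD batch over chow batch. Red points are the 2551 intervals called higher and blue points the 2940 called lower, and black circles mark the 24 intervals named by rule, from -3.04 (Hamp) to 2.77 (Dlec1).

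Of the 12 intervals named for the largest losses, 5 lay at fibrinogen and hepcidin genes. Hamp encodes hepcidin, the hormone that blocks iron release into blood, and Hamp2 is its near-identical neighbour. An interval 1632 bp from Hamp (chr7:30940236-30940736) held 63.7, 78.5 and 105 CPM in the chow libraries and 6.04, 20.4, 5.06 and 7.69 CPM in the HFD libraries. HFD 2 was the highest of its group, and the log2 fold change was -3.04 (SE 0.29, edgeR adjusted p = 3.61e-06). Near Hamp2 (chr7:30920826-30921326), levels were 41.8, 62.7 and 73.7 CPM in the chow libraries and 5.49, 12.4, 4.75 and 8.24 CPM in the HFD libraries, a log2 fold change of -2.92 (SE 0.23, edgeR adjusted p = 2.97e-07). Reads from the 2 copies may have been split between them, so each value is uncertain taken alone. Their RefSeq promoter windows matched at 276 of 297 bases (92.9%). Both windows overlapped a called interval, at -1.36 for Hamp and -1.21 for Hamp2.

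The 3 fibrinogen genes, which encode the chains of the clotting protein and are induced in the acute phase through STAT3 and C/EBP factors, lost accessibility along most of their cluster. Of 41 intervals assigned to Fgg, Fga and Fgb over 56.7 kb of chromosome 3, 36 were called lower and 0 higher, with fold changes from -2.94 to -0.09. The summed level of the cluster was 1048 to 2396 CPM in the chow libraries and 459.6 to 500.2 CPM in the HFD libraries. The Fga locus held 468, 300.3 and 624 CPM in the chow libraries and 114, 118, 114 and 116 CPM in the HFD libraries, a log2 fold change of -2.01 (SE 0.17, edgeR adjusted p = 1.10e-05). Its HFD libraries lay close together, while the chow libraries spread widely, with chow 2 the lowest and chow 3 the highest, and the groups did not overlap. Fgb held 676, 419 and 927 CPM in the chow libraries and 177, 199.8, 189 and 206 CPM in the HFD libraries (-1.80, adjusted p = 4.21e-05). Fgg followed at -1.67 (SE 0.20, edgeR adjusted p = 0.000185). The interval named for each gene changed by -2.94 at an end of Fgg (chr3:83015611-83016111), -2.92 in the body of Fga (chr3:83031710-83032210) and -2.55 at an end of Fgb (chr3:83041851-83042351). The start-site intervals moved less, by -1.22 for Fga, -1.25 for Fgb and -1.03 for Fgg. Fga and Fgb are also hepatocyte markers, of which 8 of 13 fell, against 6.08% of all loci, and their part in the result was not tested.

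The promoter windows below overlap a called start-site interval that was lower in the HFD batch, and were picked from those that also hold the STAT motif. That motif is in 5 of the 22 windows of members and named genes with a lower start-site interval and in 4 of the 28 with a higher one. The fifth lower window, that of Mtor, is not shown. The higher ones are those of Dbp, Per1, Hadha and Hadhb, and the overlapping windows of Hadha and Hadhb hold the same match. All windows are RefSeq windows of GRCm38.p6 (the assembly of mm10), from 250 bases before to 50 after the start site, 5′ to 3′ on the gene's strand. Capitals mark matches to the STAT motif TTCNNNGAA and the C/EBP motif TTGCNNAA on either strand. Fga lies at chr3:83025903-83026202 on the plus strand, Fgb at chr3:83049814-83050113, Hamp at chr7:30943980-30944279 and Hamp2 at chr7:30924132-30924431 on the minus strand.
Fga: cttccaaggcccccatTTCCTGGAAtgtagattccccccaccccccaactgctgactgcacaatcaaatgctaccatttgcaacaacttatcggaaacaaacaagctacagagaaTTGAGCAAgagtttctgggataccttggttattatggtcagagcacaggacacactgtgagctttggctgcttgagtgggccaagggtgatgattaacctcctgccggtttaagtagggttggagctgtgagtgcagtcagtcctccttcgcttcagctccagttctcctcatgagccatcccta
Fgb: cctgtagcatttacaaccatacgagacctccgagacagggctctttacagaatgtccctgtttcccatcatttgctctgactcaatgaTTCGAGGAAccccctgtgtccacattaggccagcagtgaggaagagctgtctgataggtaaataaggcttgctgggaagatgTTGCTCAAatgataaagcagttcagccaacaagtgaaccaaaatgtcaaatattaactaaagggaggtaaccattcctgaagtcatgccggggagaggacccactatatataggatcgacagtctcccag
Hamp: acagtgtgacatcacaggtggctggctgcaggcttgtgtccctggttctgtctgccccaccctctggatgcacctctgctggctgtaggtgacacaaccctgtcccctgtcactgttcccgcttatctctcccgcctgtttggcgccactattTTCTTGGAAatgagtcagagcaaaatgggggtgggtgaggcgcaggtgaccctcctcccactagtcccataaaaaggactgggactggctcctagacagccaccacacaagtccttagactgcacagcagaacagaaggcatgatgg
Hamp2: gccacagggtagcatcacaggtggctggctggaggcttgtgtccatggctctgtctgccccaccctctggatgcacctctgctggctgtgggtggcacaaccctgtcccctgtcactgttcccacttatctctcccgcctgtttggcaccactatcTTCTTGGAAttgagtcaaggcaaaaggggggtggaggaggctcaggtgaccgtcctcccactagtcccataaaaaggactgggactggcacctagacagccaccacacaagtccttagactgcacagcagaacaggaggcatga
The STAT match starts 234 bases before the start site in Fga, 162 in Fgb, 97 in Hamp and 94 in Hamp2, and the C/EBP match 135 bases before it in Fga and 80 in Fgb. Of all 27025 promoter windows, 8.47% hold the STAT motif and 10.8% the C/EBP motif. Among windows with a called interval the shares were 6.33% and 9.76% of 379 lower windows, and 6.14% and 8.48% of 342 higher ones. Among the 10286 windows whose interval was not called they were 6.63% and 8.54%. The STAT and C/EBP letters do not overlap in the Fga and Fgb windows. The Hamp and Hamp2 windows hold no match to the C/EBP motif, and the Fgg window none to either.

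**Figure D2:**
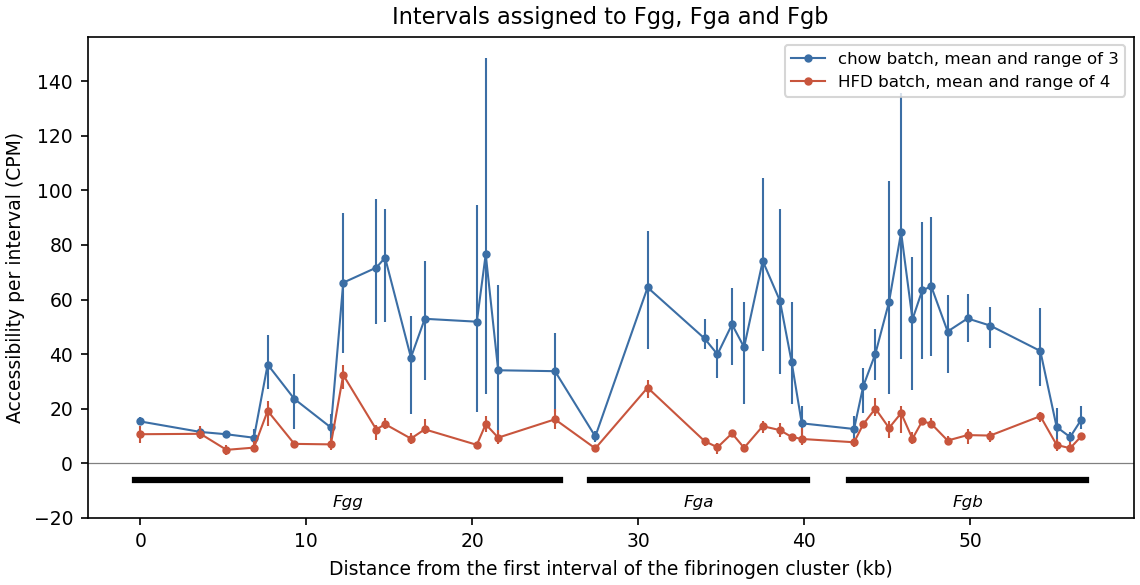
Accessibility of the 41 intervals assigned to Fgg, Fga and Fgb (CPM) by distance from the first of them (kb). Points are group means and vertical lines the range of 3 chow or 4 HFD libraries, and black bars show which intervals are assigned to which gene; 36 of the 41 were called lower in the HFD batch.

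Core clock loci differed in opposite directions. Of 22 clock loci with matched intervals, 10 were called higher and 3 lower, against 7.19% and 6.08% of all loci, with a list median of 0.24 against -0.01 over all loci. Most loci called higher encode repressors or outputs of the loop, and the 3 called lower were Npas2, Clock and Arntl, which encode its activators. Ciart, a repressor of CLOCK and BMAL1, held 19.1, 19.2 and 17.7 CPM in the chow libraries and 42.5, 52.1, 38.3 and 41.5 CPM in the HFD libraries. All HFD libraries lay above all chow libraries, and the log2 fold change was 1.23 (SE 0.12, edgeR adjusted p = 4.21e-05). Per1, a core repressor, held 45.9, 40.9 and 46.9 CPM in the chow libraries and 102, 124, 76.9 and 92.7 CPM in the HFD libraries, a log2 fold change of 1.15 (SE 0.13, edgeR adjusted p = 8.75e-05). Its relative Per3 followed with 1.10 (SE 0.16, edgeR adjusted p = 0.000833). Both showed no overlap between groups.

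Dbp, a clock-driven transcription factor, held 77.4, 63.3 and 78.1 CPM in the chow libraries and 155, 171, 123 and 137 CPM in the HFD libraries, a log2 fold change of 1.01 (SE 0.11, edgeR adjusted p = 8.75e-05). A gene-body interval of Sphk2, a sphingosine kinase gene beside Dbp (chr7:45711272-45711772), held 6.29, 6.52 and 6.47 CPM in the chow libraries and 35.3, 43.4, 33.4 and 46.8 CPM in the HFD libraries. Its chow libraries were nearly level, with a log2 fold change of 2.63 (SE 0.16, edgeR adjusted p = 7.70e-09). Tef, a factor of the same family as Dbp, reached 0.76 (adjusted p = 0.00144), and Bhlhe41, a repressor that binds E-boxes, 0.63 (0.00527). Npas2, the partner of BMAL1 that can stand in for CLOCK, held 174, 176 and 201 CPM in the chow libraries and 108, 94.2, 109 and 103 CPM in the HFD libraries, a log2 fold change of -0.82 (SE 0.09, edgeR adjusted p = 6.45e-05). Its HFD libraries were all below its chow libraries. Clock fell by 0.38 (adjusted p = 0.0114) and Arntl by 0.32 (0.0214). Noct, a rhythmic gene outside the list, rose by 0.81 (0.000231). With gene-end intervals alone, Noct was at 0.11 (0.529), Clock at -0.15 (0.344) and Bhlhe41 at 0.58 (0.0646).

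The other 4 called clock loci, named after their values were seen, were Cry2, Nr1d1, Per2 and Csnk1e. They had smaller fold changes, of 0.31, 0.41, 0.46 and 0.31. Each lost its call when 1 of 5 or more libraries was left out in turn, with an adjusted p of up to 0.0923, 0.139, 0.0879 and 0.144. Arntl lost its call without chow 3 (0.0683), HFD 2 (0.0737) or HFD 4 (0.0653). The number of higher clock loci was 6 without chow 3, HFD 1 or HFD 2, and 10 without chow 2 and HFD 3 together. Ciart, Per1, Per3, Dbp, Tef, Bhlhe41, Npas2 and Clock were called in all 7 fits that left out 1 library. Clock loci not called included Cry1 (-0.21), Nr1d2 (-0.01) and Nfil3 (-0.13).

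The E-box of the clock heterodimer, CACGTG, is its own reverse complement, so a match counts for both strands. Among the 28 members with a called higher start-site interval, 3 windows hold it, those of Ciart, Tef and Fgf21, as do 3 of 22 among members called lower (Insig1, Onecut1 and Reln). The windows of the 3 higher members are shown with the E-box in capitals. Ciart lies at chr3:95882179-95882478 and Fgf21 at chr7:45615441-45615740 on the minus strand, and Tef at chr15:81811164-81811463 on the plus strand.
Ciart: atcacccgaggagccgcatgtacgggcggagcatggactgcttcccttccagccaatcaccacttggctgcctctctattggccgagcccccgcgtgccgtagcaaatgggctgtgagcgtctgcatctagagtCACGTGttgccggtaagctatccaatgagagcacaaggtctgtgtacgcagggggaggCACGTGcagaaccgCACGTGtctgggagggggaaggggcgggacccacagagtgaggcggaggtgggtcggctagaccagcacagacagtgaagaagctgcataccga
Tef: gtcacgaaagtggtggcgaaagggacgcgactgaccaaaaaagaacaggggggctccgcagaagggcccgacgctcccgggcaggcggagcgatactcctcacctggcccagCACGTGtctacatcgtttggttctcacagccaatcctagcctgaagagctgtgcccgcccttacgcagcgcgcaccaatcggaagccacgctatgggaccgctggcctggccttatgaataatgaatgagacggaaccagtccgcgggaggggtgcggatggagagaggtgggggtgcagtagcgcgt
Fgf21: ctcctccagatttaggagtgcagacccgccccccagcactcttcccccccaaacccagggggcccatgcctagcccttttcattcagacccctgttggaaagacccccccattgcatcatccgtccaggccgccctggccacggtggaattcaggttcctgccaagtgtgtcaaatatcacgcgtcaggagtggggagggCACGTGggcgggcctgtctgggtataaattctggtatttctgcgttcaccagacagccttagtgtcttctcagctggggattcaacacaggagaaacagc
The Ciart window holds 3 copies, starting 116, 58 and 44 bases before the start site. Tef holds 1 at 138 bases and Fgf21 1 at 50 bases before it. Over all 27025 windows 7.24% hold the E-box, against 11.7% of the 342 higher windows, 5.01% of the 379 lower windows and 10.2% of the 10286 windows whose interval was not called. The start-site interval of Ciart held 7.82, 10.4 and 9.13 CPM in the chow libraries and 19.9, 23.6, 21.1 and 20.7 CPM in the HFD libraries (log2 fold change 1.23, SE 0.17, edgeR adjusted p = 0.000167), with no overlap. That of Tef rose by 0.83 (adjusted p = 0.0011). The start sites of Dbp (1.14) and Per1 (1.16) were called as well, and their windows hold no CACGTG.

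Of 28 loci of fatty acid oxidation and ketone synthesis, 10 rose and 0 fell in the HFD batch, against 7.19% and 6.08% of all loci, and the list median was 0.30. The other 18 were not called. Cpt1a, the carnitine palmitoyltransferase that admits fatty acids to mitochondria, held 196, 128 and 164 CPM in the chow libraries and 306, 417, 295 and 339 CPM in the HFD libraries. All HFD libraries lay above all chow libraries, and the log2 fold change was 1.06 (SE 0.14, edgeR adjusted p = 0.000413). Creb3l3, a membrane-bound fasting factor, reached 0.72 (adjusted p = 0.00383). Ppara itself held 582, 442 and 476 CPM in the chow libraries and 745, 850.0, 632 and 812 CPM in the HFD libraries, with no overlap between groups, a log2 fold change of 0.60 (SE 0.12, edgeR adjusted p = 0.00518). With gene-end intervals alone it was at 0.29 (0.169). Hadha of the trifunctional protein, the carnitine carrier Slc25a20 and the thioesterase Acot1 rose by 0.57, 0.53 and 0.45.

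Cyp4a10 (0.47) and Fgf21 (0.37), called with all libraries, lost their call when single libraries were left out, with an adjusted p of up to 0.0888 and 0.119. The count lay between 7 and 12 over the 7 fits without 1 library, and was 12 higher and 1 lower without chow 2 and HFD 3 together. Known targets of fasting in the list were not all called. Pdk4, a fasting-induced brake on glucose oxidation, was at -0.15 (SE 0.11, edgeR adjusted p = 0.395), and the ω-hydroxylase Cyp4a14 at -0.18 (0.653).

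**Figure D3:**
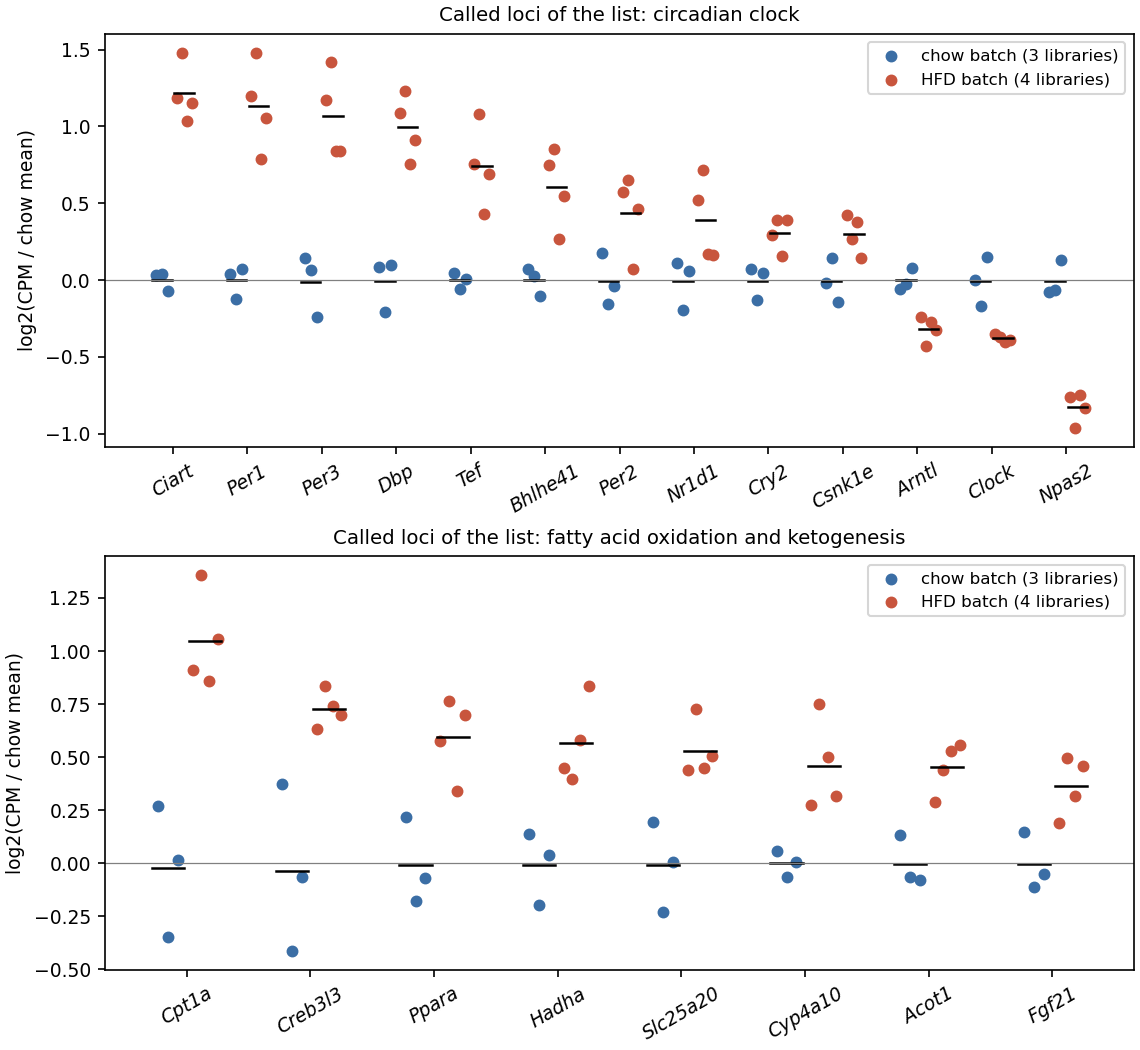
Accessibility of each called locus of the clock list (top, 13 loci) and of the called loci described here from the fatty acid oxidation list (bottom) in each library, as log2 of CPM over the mean of the chow libraries. Blue points are the 3 chow libraries, red points the 4 HFD libraries and black lines group means. Groups do not overlap except at Per2 and Csnk1e in the clock panel, and do not overlap at any locus of the oxidation panel.

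Loci of gluconeogenesis and fasting followed the same direction in part. Of 20, 7 rose and 0 fell (median 0.13), against 7.19% and 6.08% of all loci. Sik1, a kinase induced by cAMP that restrains gluconeogenesis, held 106, 78.5 and 102 CPM in the chow libraries and 176, 218, 179 and 226 CPM in the HFD libraries, and its groups did not overlap (log2 fold change 1.06, SE 0.12, edgeR adjusted p = 8.75e-05). The nuclear receptor Nr4a1 (0.58) and the factor Cebpb (0.58) were called in all fits without 1 library. Klf15, a fasting factor of amino acid use, reached 0.46, but lost its call without chow 2, chow 3, HFD 1, HFD 2 or HFD 4 (adjusted p up to 0.106). The count fell to 4 without chow 2, 3 without chow 3, 3 without HFD 2 and 4 without HFD 4. Pck1, which encodes the rate-limiting enzyme of gluconeogenesis, had a log2 fold change of 0.80 (SE 0.28, edgeR adjusted p = 0.0692), and G6pc of -0.04 (0.954).

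Lipid droplet loci gave 6 higher and 0 lower of 18 (median 0.18), against 7.19% and 6.08% of all loci. Plin4, a droplet coat protein, held 73.9, 62.01 and 54.5 CPM in the chow libraries and 139, 113, 109 and 81.00 CPM in the HFD libraries (log2 fold change 0.80, SE 0.14, edgeR adjusted p = 0.00294). The lipase Pnpla2 reached 0.44 and the seipin gene Bscl2 0.46. Fitm1, a droplet-forming protein mainly known from muscle, had low levels of 2.39 to 4.82 CPM on chow and 5.86 to 11.02 CPM on HFD (1.11), and lost its call without chow 3 (0.0675) or HFD 1 (0.0792). The count was 3 without chow 3 and 6 without chow 2 and HFD 3 together. Plin2, the main coat of liver droplets, was at 0.24 (0.281) and Cidec at 0.27 (0.146). Immediate early and AP-1 loci gave 7 higher and 0 lower of 19 (median 0.20), against the same 7.19% and 6.08% of all loci. Those called higher included Mafk (0.56), Maff (0.55), Ier3 (0.54) and Fosl2 (0.43). With gene-end intervals alone Mafk (0.0885), Maff (0.0506) and Ier3 (0.204) were not called.

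Targets of CAR and PXR rose at 11 of 26 loci and fell at 0 (median 0.39), against 7.19% and 6.08% of all loci. Alas1, the first enzyme of haem synthesis and a target of both fasting and xenobiotic receptors, held 332, 119.7 and 177 CPM in the chow libraries and 627, 745, 446 and 495 CPM in the HFD libraries. Chow 1 stood above the other chow libraries and still below every HFD library, and the log2 fold change was 1.46 (SE 0.26, edgeR adjusted p = 0.00253). Of its 13 intervals, 12 were called higher. Cyp2b13, a cytochrome P450 of female liver, held 78.4, 77.9 and 58.3 CPM in the chow libraries and 186, 204, 126 and 209 CPM in the HFD libraries (log2 fold change 1.34, SE 0.15, edgeR adjusted p = 8.75e-05). An interval 15691 bp from it (chr7:26111888-26112388) held 1.61, 2.68 and 3.39 CPM in the chow libraries and 18.4, 16.9, 10.4 and 20.5 CPM in the HFD libraries, with a log2 fold change of 2.69. Cyp2a5, a coumarin hydroxylase, reached 1.08 (SE 0.18, edgeR adjusted p = 0.00206) and Por, the electron donor of cytochromes P450, 0.88 (SE 0.13, edgeR adjusted p = 0.000824). Nr1i2, which encodes PXR, held 219, 176 and 183 CPM in the chow libraries and 303, 351, 255 and 314 CPM in the HFD libraries (0.67, adjusted p = 0.00202). Cyp2b10, the classical CAR target, was at 0.02 (0.931). The count was 7 without HFD 2 or HFD 4, 15 without HFD 3, and 14 higher and 1 lower without chow 2 and HFD 3 together. The Cyp2a, Cyp2b and Cyp3a genes have near-identical copies that may share reads, so the values of single members are uncertain.

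Genes with higher expression in female than in male liver share 4 called members with this list (Cyp2b13, Cyp2b9, Sult2a1 and Cyp3a41a). Cyp2b9 and Cyp3a41a lost their call in 5 of the 7 fits without 1 library (adjusted p up to 0.16 and 0.159) and Sult2a1 in 3 (0.0963). In that list 8 of 19 loci rose and 1 fell (median 0.17), against 7.19% and 6.08% of all loci. Outside the shared members, the thioesterase gene Acot3 rose by 0.78 (0.00125) and was called in all fits without 1 library, but not with gene-end intervals alone (0.129). The count was 3 without chow 1, 3 without chow 3, 4 without HFD 1, 2 without HFD 2 and 4 without HFD 4. Among male-biased genes 1 of 20 rose, the fatty acid elongase Elovl3 (log2 fold change 1.04, SE 0.24, edgeR adjusted p = 0.0116), and 2 fell, Hsd3b5 (-0.52) and Selenbp2 (-0.42). These shares, 5% and 10%, were near the 7.19% and 6.08% of all loci. Hsd3b5 lost its call without chow 1 (0.0627), and Selenbp2 without 5 of the libraries, with an adjusted p of up to 0.187.

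**Figure D4:**
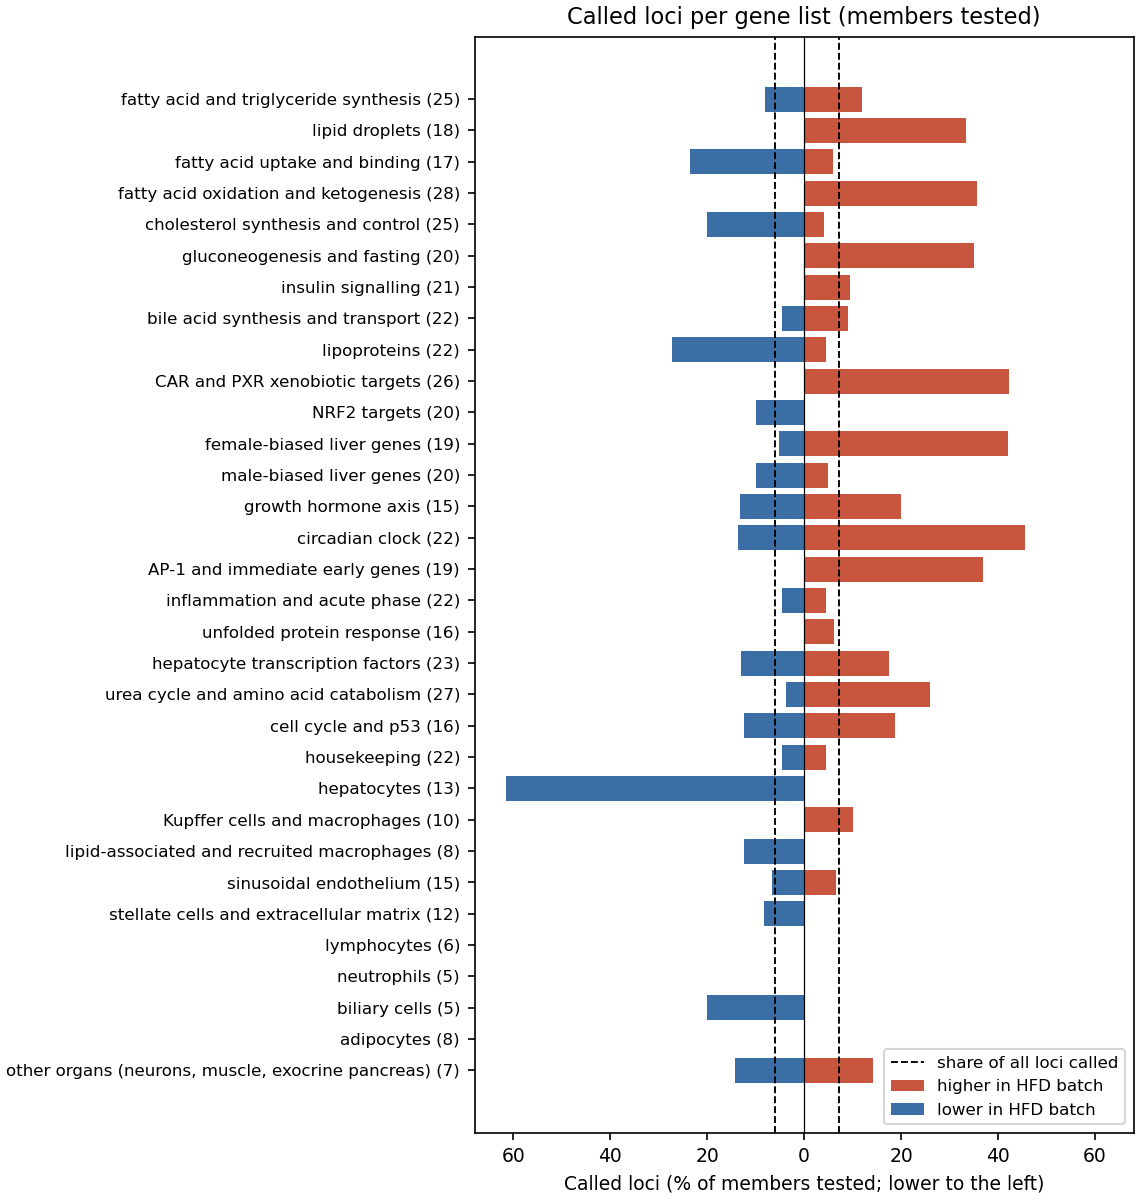
Share of tested members called higher (red, right) or lower (blue, left) in the HFD batch for each of the 32 gene lists, with the number of members tested in brackets. Dashed lines mark the share of all 15304 loci called higher (7.19%) and lower (6.08%).

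Several apolipoprotein loci fell. In the lipoprotein list 6 of 22 loci fell and 1 rose (median -0.14), against 6.08% and 7.19% of all loci. Apoa1, the main protein of HDL, held 389, 297 and 461 CPM in the chow libraries and 174, 226, 131 and 159 CPM in the HFD libraries, with no overlap (log2 fold change -1.15, SE 0.16, edgeR adjusted p = 0.0005). Apoc1, which sits in the Apoe cluster, held 361, 319 and 293 CPM in the chow libraries and 136, 193, 141 and 149 CPM in the HFD libraries (log2 fold change -1.07, SE 0.12, edgeR adjusted p = 8.75e-05), and Apoe itself 488, 405 and 308 CPM in the chow libraries and 203, 240.3, 196 and 203 CPM in the HFD libraries (log2 fold change -0.93, SE 0.13, edgeR adjusted p = 0.0005). Apoc3 fell by 0.59 (0.00708). With gene-end intervals alone, Apoe was at -0.17 (0.258) and Apoc3 at -0.27 (0.125). Angptl8, an insulin-induced inhibitor of lipoprotein lipase, had chow levels of 59.4 to 149.3 CPM that overlapped the HFD range. Its fold change of -0.86 lost its call without chow 1 (0.0955), chow 2 (0.0734) or HFD 4 (0.0839). The number of lower loci was 4 without chow 1 and 8 without chow 2. Apob, the protein of VLDL and LDL, was at -0.16 (0.544).

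Among genes that take up and bind fatty acids, 4 of 17 fell and 1 rose, against 6.08% and 7.19% of all loci. Fabp1, the main fatty acid binding protein of hepatocytes, held 718, 342 and 475 CPM in the chow libraries and 192, 250.1, 277 and 257 CPM in the HFD libraries (log2 fold change -1.07, SE 0.18, edgeR adjusted p = 0.00216). Fabp5 was at -0.65 (0.000371) and Lpl, lipoprotein lipase, at -0.80 (0.000223). Cd36, a fatty acid transporter, rose by 0.53 (0.00512).

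Cholesterol synthesis and its control gave 5 lower and 1 higher of 25 loci, against 6.08% and 7.19% of all loci. Insig1, which holds SREBP in the endoplasmic reticulum and is itself an SREBP target, held 629, 690.0 and 519.8 CPM in the chow libraries and 323, 381, 369 and 446 CPM in the HFD libraries (log2 fold change -0.69, SE 0.12, edgeR adjusted p = 0.00216). Its strongest interval, at a gene end, held 58.8, 113 and 30.2 CPM in the chow libraries (chr5:28079364-28079864). The matched HFD interval (chr5:28079132-28079632) held 5.36, 10.7, 13.3 and 23.1 CPM in the HFD libraries. This pair overlaps by less than 80%, and the part of the shift in position in the difference was not tested. Chow levels spread widely there, with chow 2 the highest (-2.36). The synthesis genes Sqle (-0.37), Hmgcs1 (-0.49), Idi1 (-0.50) and Hsd17b7 (-0.57) were called with all libraries. Each lost its call without some, with an adjusted p of up to 0.0648, 0.0968, 0.122 and 0.187. Matched at 80% overlap, Hmgcs1 was at -0.31 (0.142). The number of lower loci was 1 without chow 1, 2 without HFD 1 and 3 without HFD 2.

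Fatty acid synthesis held 3 higher (12%) and 2 lower (8%) loci of 25, close to the 7.19% and 6.08% of all loci (median -0.11). The number of lower loci was 0 without chow 2, HFD 1, HFD 3 or HFD 4, 1 without chow 1 or HFD 2 and 4 without chow 3, and without chow 2 and HFD 3 together 7 loci were higher and 0 lower. Fasn, the fatty acid synthase, held 264, 939 and 95.7 CPM in the chow libraries and 175, 154, 109.6 and 169.9 CPM in the HFD libraries. Chow 2 alone stood far above the rest, and chow 3 was below every HFD library. Its fold change of -1.50 (SE 0.46, edgeR adjusted p = 0.0416) was -0.23 without chow 2 (adjusted p = 0.574). The desaturase genes Fads2 (0.58) and Fads1 (0.42) and the phosphatase gene Lpin2 (0.50) rose, Fads1 not without HFD 2 (0.051). With gene-end intervals alone, Fads2 was at 0.24 (0.148) and Lpin2 at 0.081 (0.605). Scd1 was at -0.14 (0.532), Srebf1 at -0.22 (0.304) and Acaca at 0.20 (0.176).

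Of 23 loci of hepatocyte transcription factors 4 rose (17.4%) and 3 fell (13%), against 7.19% and 6.08% of all loci. These 23 loci hold 545 intervals, against 68132 over all 15304 loci, so the shares are not matched for size. The factor loci that rose were Nr1i2 and Ppara, described above, Cebpb, and Nr1h3, the gene of the sterol receptor LXRα (0.32), which lost its call without 6 of the libraries (adjusted p up to 0.108). Foxa2, a pioneer factor of liver genes, held 543, 414 and 614 CPM in the chow libraries and 290.4, 343, 299 and 308 CPM in the HFD libraries (log2 fold change -0.76, SE 0.12, edgeR adjusted p = 0.00118). Onecut1 (HNF6) reached -0.82 and lost its call without chow 3 (0.0756) or HFD 1 (0.0577). Cebpa was at -0.47 and lost its call without chow 1 (0.0611), HFD 1 (0.051) or HFD 4 (0.0575). Hnf4a was at 0.10 (0.603). In bile acid synthesis and transport 2 of 22 rose (9.09%) and 1 fell (4.55%), near the shares of all loci. Cyp7a1, the enzyme that starts the main route to bile acids, held 198, 188 and 231 CPM in the chow libraries and 145, 148, 128 and 144 CPM in the HFD libraries (log2 fold change -0.54, SE 0.09, edgeR adjusted p = 0.00206). In urea cycle and amino acid breakdown 7 of 27 rose and 1 fell. The argininosuccinate lyase gene Asl held 61.8, 48.5 and 57.8 CPM in the chow libraries and 134, 158, 81.2 and 89.6 CPM in the HFD libraries (log2 fold change 1.05, SE 0.18, edgeR adjusted p = 0.00216), and Gpt2 reached 0.52 (0.0095). That count was 3 without HFD 1 or HFD 2 and 11 without HFD 3.

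Osgin1, an oxidative stress-induced gene in the NRF2 list, held 1781, 995 and 1023 CPM in the chow libraries and 383, 387, 532 and 538 CPM in the HFD libraries (log2 fold change -1.46, SE 0.18, edgeR adjusted p = 0.000231). Of its 26 intervals, 21 were called lower. The list otherwise gave 1 more lower locus, Srxn1 (-0.46), of 20, and 0 higher. Matched at 80% overlap, Srxn1 was at -0.21 (0.474). Inflammation and acute phase gave 1 higher, Stat3 (log2 fold change 0.43, SE 0.10, edgeR adjusted p = 0.0095), and 1 lower, Fgb, of 22. Insulin signalling gave 2 higher of 21, among them Socs3 (0.41), a feedback inhibitor of cytokine signalling. The growth hormone axis gave 3 higher and 2 lower of 15, the unfolded protein response 1 higher of 16, and cell cycle and p53 genes 3 higher and 2 lower of 16. Of the calls in the growth hormone, unfolded protein and cell cycle lists, Socs3, the apoptosis gene Bax (0.44) and the stress gene Sesn2 (0.49) held without each library, and the others were lost without 1 or more. Socs3 was not called with gene-end intervals alone (0.0509), nor Bax at 80% overlap (0.0873). Housekeeping genes gave 1 higher and 1 lower of 22. Of all loci, 7.19% were called higher and 6.08% lower. The inflammation and housekeeping lists (4.55% each way), insulin signalling (9.52% higher) and the unfolded protein response (6.25% higher) lay near these shares. The growth hormone (20% and 13.3%) and cell cycle (18.8% and 12.5%) lists lay above them. The floxed gene was not called: the Matr3 locus, with 5 intervals, had a log2 fold change of 0.12 (SE 0.10, edgeR adjusted p = 0.442). It is floxed in both groups, so it checks no label.

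Some of the largest single-interval changes fell outside the lists. In the gene body of Dlec1 (chr9:119142763-119143263) levels were 5.14, 7.80 and 3.15 CPM in the chow libraries and 15.9, 22.7, 37.2 and 67.4 CPM in the HFD libraries, a log2 fold change of 2.77 (SE 0.37, edgeR adjusted p = 0.000151). The HFD libraries spread over a wide range there, with HFD 4 the highest. A body interval of Camk2b, a calmodulin-dependent kinase gene, rose by 2.34 (chr11:6012516-6013016). A gene-end interval of Rgs16, a regulator of G-protein signalling, rose by 2.01 (chr1:153746024-153746524). The others named by rule were near Avpr1b, a vasopressin receptor gene (2.03), Msantd1 (1.86) and Ctcfl, a relative of CTCF (1.86). Downward, an interval at an end of Phlda1 (chr10:111509385-111509885) held 69.95, 42.9 and 63.01 CPM in the chow libraries and 6.87, 9.37, 8.43 and 8.10 CPM in the HFD libraries, a log2 fold change of -2.84 (SE 0.17, edgeR adjusted p = 7.70e-09). An intergenic interval 13739 bp from Alpk2, an alpha-kinase gene on chromosome 18, held 126, 95.2 and 90.5 CPM in the chow libraries and 14.97, 11.5, 18.7 and 20.04 CPM in the HFD libraries (log2 fold change -2.68, SE 0.16, edgeR adjusted p = 7.70e-09). Intervals at Id3, an inhibitor of helix-loop-helix factors (-2.23), and at the carboxylesterase gene Ces3b (-2.24) were also among the largest losses. At genes of the lists, intervals were named at Alas1 (2.15), Sik1 (1.97), Cyp3a25 (1.82), Osgin1 (-2.43) and Fabp1 (-2.38).

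Changes spread over some whole loci. Of 1597 loci with at least 10 intervals, 20 had at least 50% of them called higher and 25 at least 50% called lower. Besides those above, the lower loci included C3, the central complement component, with 34 of 35 intervals called (-1.16, adjusted p = 9.17e-05). Clec2d, a lectin-like gene, followed with 11 of 22 (-1.37), and Hal, the histidine ammonia-lyase gene, with 7 of 11. Upward, Cpt1a had 12 of 15 intervals called, Por 14 of 16 and Oat, ornithine aminotransferase, 6 of 10 (0.74). Within 5000 bp, 39.3% of higher intervals had another higher one, and 32.1% of lower intervals another lower one. Of all 73945 tested intervals, 65.7% had another tested interval, called or not, within that distance. That set is far denser than the 2551 higher or 2940 lower intervals, so its share is no baseline for theirs. Clustering of calls was not tested.

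Markers of hepatocytes moved with these groups. Of 13 hepatocyte marker loci 8 fell and 0 rose, with a median of -0.47, against 6.08% lower and 7.19% higher of all loci. The groups did not overlap at 5 of the 13, against 24.5% of all loci. Of the 326 intervals of these markers, 87 were called lower and 17 higher. Their summed level was 6652 to 9949 CPM in the chow and 4781 to 7363 CPM in the HFD libraries. Those that fell include Fga, Fgb and Apoa1, and also Ttr (log2 fold change -0.80, SE 0.15, edgeR adjusted p = 0.00371), the transthyretin gene. Alb, the albumin gene, at -0.47 lost its call without 6 of the libraries, with an adjusted p of up to 0.198. The number of lower markers was 4 without chow 1, 10 without chow 2 and 5 without each of the other 5 libraries. The markers' part in the results was not tested.

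Markers of other liver cells are set against the 7.19% of all loci called higher and 6.08% called lower. Kupffer cell markers gave 1 higher (Spi1, 0.39 (SE 0.08, edgeR adjusted p = 0.00685)) and 0 lower of 10, with summed levels of 399.0 to 415.8 CPM on chow and 391.1 to 443.3 CPM on HFD. Sinusoidal endothelium gave 1 higher and 1 lower of 15 (771.7 to 789.1 and 717.7 to 801.9 CPM), and stellate cells 0 higher and 1 lower of 12 (356.5 to 415.0 and 338.4 to 406.5 CPM). The endothelial calls, Lyve1 and Pecam1, and the stellate call, Reln, were each lost without chow 1, with an adjusted p of up to 0.176, 0.0592 and 0.052 over the libraries left out. Lipid-associated and recruited macrophages gave 1 lower of 8 (Lpl), at 317.2 to 345.7 and 248.5 to 287.5 CPM. Biliary markers gave 1 lower of 5, Prom1 (-0.45), at 362.8 to 390.1 and 298.6 to 339.8 CPM. No locus was called among 6 lymphocyte, 5 neutrophil and 8 adipocyte markers. The markers Vsig4, Timd4, Itgax, Cd3g and Krt19 had no matched interval. Markers of other organs gave 1 higher, Prss1 (log2 fold change 1.21, SE 0.18, edgeR adjusted p = 0.000918), and 1 lower, Snap25 (-0.45), of 7. Snap25 was not called without HFD 1 (0.0616). Prss1 is a pancreatic trypsinogen gene, at 5.22 to 5.75 CPM on chow and 11.8 to 13.2 CPM on HFD.

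Livers without hepatocyte matrin-3, from other animals of the same 2 batches, gave a second view of the same contrast. In a fit of all 14 libraries, 13992 intervals were called between the HFD and chow knockouts (18.9%), 9.24% higher and 9.68% lower. Of intervals called higher in floxed livers, 95.3% had the same sign in knockouts and 64.7% were also called in that direction. Of those called lower the shares were 93.4% and 62.4%, and of intervals not called 72.2% and 14%. Across intervals the fold changes correlated at r = 0.631, a description over points that share the 2 batches. Cpt1a (1.49), Per1 (1.19), Npas2 (-0.81) and Osgin1 (-1.63) had knockout values close to the floxed ones or larger. Dbp (-0.03), Cyp2a5 (-0.09), Cyp2b13 (-0.14), C3 (0.09) and Onecut1 (0.04) were near 0 in knockouts. The named intervals at Sphk2 (0.71), Dlec1 (0.76), Rgs16 (-0.24), Cyp3a25 (-0.28), Fgg (-0.996) and Cyp2b13 (-0.301) were not called in knockouts. The other named intervals were called in the same direction as in floxed livers. The median of the clock list was 0.24 in floxed and 0.07 in knockout livers. It held 10 higher and 3 lower loci in floxed livers, and 7 and 6 in knockout livers. The CAR and PXR list had a median of -0.16 there, with 4 loci higher and 6 lower, against 27.7% of all loci called (13.4% higher and 14.4% lower).

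The difference between the knockout and floxed contrasts passed at 135 intervals (0.183%) and 6 loci (0.0392%). The loci were Car3, Egfr, Gsta3, Cyp2b13, Abi3bp and Gadd45g, named after their values were seen. Cyp2b13 was called in floxed and not in knockout livers (interaction adjusted p = 0.00748, edgeR). Car3, a carbonic anhydrase gene, was -0.05 in floxed and -1.58 in knockout livers (0.000814), and Gadd45g, a stress-response gene, -0.24 and 0.72 (0.0462). Egfr, the growth factor receptor gene, was -0.93 (SE 0.18, edgeR adjusted p = 0.00454) in floxed and 0.98 in knockout livers (interaction adjusted p = 0.00458). Gsta3, a glutathione transferase gene, was 0.49 and -0.77 (0.00741). Abi3bp was 0.66 and -0.14 (0.00817). Dbp (0.679) and Cyp2a5 (0.303) did not pass that test.

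**Figure D5:**
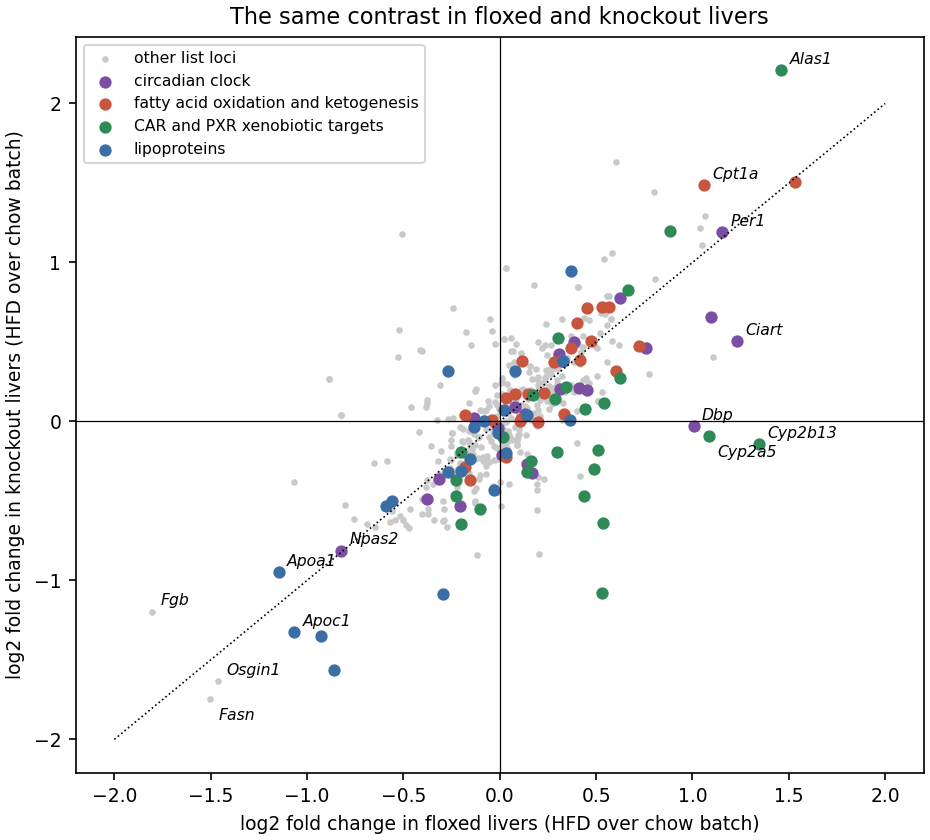
Log2 fold change of each list locus, HFD batch over chow batch, in floxed livers (x axis, 7 libraries) and in knockout livers (y axis, 7 other libraries), with the line of equal change dotted. Per1 and Npas2 lie near the line, while Dbp, Cyp2a5 and Cyp2b13 are near 0 in knockouts.

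Calls were spread over the genome with little preference for place. They made up 7.53% of gene-end intervals (within 1000 bp of a gene bound), 7.21% of gene-body and 7.69% of intergenic intervals, and 6.66% of intervals at a RefSeq start site. Gene ends held 35.96% ± 1.12 (SD, n = 3) of reads in chow and 35.73% ± 0.274 (SD, n = 4) in HFD libraries. The difference of -0.234 percentage points was within the spread between libraries (exact permutation test, two-sided, p = 0.8, smallest possible 0.0571). The median fold change ran from 0.05 in the lowest of 5 equal classes of intervals by level to -0.05 in the highest.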

How the data were processed

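ATAC-seq reads were counted in 7 floxed livers, 3 on chow and 4 on HFD. The authors deposited 1 table of whole-number read counts per interval and library for each diet. Intervals are 501 bp wide on mm10. MACS2 2.2.7.1, ChIPseeker 4.1.1, HOMER 4.11, Bowtie2 2.4.2, DESeq2 4.2.0, bedtools and Trim Galore 0.6.7 are named, without roles, in the submitters' processing notes. Duplicate removal and the shift of reads for the transposase were not found there. Intervals were called on libraries of this series, but not on the 7 floxed livers alone. Of the 73945 matched intervals, 19593 carry a floxed name in both diets. Regions open in few animals may be missing. HFD columns match single labels, and chow columns name only the group.

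Intervals were matched one to one by at least 50% overlap, and 68132 of them were assigned to genes, giving 15304 loci. Positions given for intervals are those of the chow interval, and the matched HFD interval can be shifted. The named pairs at Insig1, Cyp3a25, Fgb and Ces3b overlap by less than 80%. The counts of the 7 floxed libraries were fitted together in edgeR 4.0.16 (R 4.3.3) with TMM scaling, filterByExpr and the quasi-likelihood test, with Benjamini-Hochberg adjustment over all intervals or loci at 0.05. A 14-library fit gave the knockout contrast and the difference between contrasts. Replicates differed by more than sampling noise (chi-square per degree of freedom at least 2.56). CPM use TMM-scaled library sizes, and SEs come from the fold change and its F statistic. p-values measure the spread between these livers only. Scripts were tested on simulated counts. Alternatives, 23 by interval and 22 by locus, included DESeq2 1.42.0 and limma 3.58.1. The fit without chow 2 and HFD 3 together and that of the knockout libraries alone were not planned beforehand. Tables and exact tests used Python 3.11.15, pandas 2.3.3 and scipy 1.17.1.

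Named intervals were the 12 largest rises and 12 largest falls, 1 per gene, among called, non-overlapping intervals at or above the median level (9.99 CPM) at genes with a curated name. That rule fixes their lack of overlap, and a rise could pass the level minimum through the HFD group alone. Named loci were up to 4 of each of the 32 lists, called loci with the largest fold change first, and Matr3. The outlier and stability checks took another set of 154 loci. It holds every called locus of the lists, Matr3, and each locus with at least 10 intervals of which at least 50% were called in 1 direction. Other members were named, after their values were seen, for a known role or to complete a count. Some list members are counted in the lists but not reported here by name. The members and lists were chosen with earlier results of these data known.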

Additional observations from a re-analysis of the deposited data

Results flagged for a closer look

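The 24 named intervals and the 154 loci taken for these checks were tested together for an outlier among the 4 HFD livers. The highest or lowest library stood far from the other 3 at 5 of them. That is fewer than the about 1 in 20 groups that chance gives. At the named Fabp1 interval, HFD 3 held 10.575 CPM and the others 5.62 to 6.04 CPM. At the Apoe locus, HFD 2 held 240.27 CPM against 196.1 to 203.2 CPM. At the Fosl2 locus, HFD 4 held 195.39 CPM against 185.5 to 185.9 CPM. At the Alb locus, HFD 3 held 729.49 CPM against 973.7 to 1001 CPM. At the locus of Slc25a10, a mitochondrial dicarboxylate carrier gene, HFD 2 held 245.98 CPM against 199.8 to 201.9 CPM.

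The contrast of the batches differed between knockout and floxed livers at Cyp2b13, by edgeR's interaction term, for the named interval (adjusted p = 0.00445) and for the locus (adjusted p = 0.00748).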

How the results depend on the processing

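Against 5491 interval calls, 2551 higher and 2940 lower, limma-voom with quality weights gave 11894 (5818 and 6076) and the replicate block 1924 (860 and 1064). A test against a log2 fold change of 1 gave 67 (11 and 56). Limiting the set to floxed-named intervals of both diets left 19593 to test. Of these, 984 were called (362 higher and 622 lower), or 5.02%, against 7.43% of all 73945. Housekeeping gene-end scaling gave 3915 higher. Leaving out 1 library gave 2957 to 6569 intervals, 1236 to 2789 higher and 1651 to 3911 lower. Against 2032 locus calls, 1101 higher and 931 lower, limma-voom gave 3602 (1899 and 1703), the block 363 (198 and 165), and housekeeping scaling 507 lower. Leaving out 1 library gave 946 to 2388 loci, 545 to 1414 higher and 383 to 974 lower. DESeq2 gave 6603 intervals and 2391 loci. The cause of these shifts was not tested. With genes assigned within 10000 bp, the Alpk2 locus was at 0.034 and Snap25 at 0.26, and Snap25 was at 0.30 with gene-end intervals only. The difference in gene-end read share was -0.672 to 0.395 percentage points without 1 library, with the positive value without chow 3. The same contrast in knockout livers gave 14650 calls when those 7 libraries were fitted alone.

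Of the 154 loci taken for these checks, most of them chosen because they were called, 84 kept their side of the threshold without each library. Over all alternatives, 485 of 3370 comparisons lost a call. The replicate numbers do not pair the livers: same-numbered libraries correlated at -0.0423, -0.238 and -0.155 in their deviations from group means, and none correlated best with its own number. HFD depth, 6.36 to 8.56 M reads, limits weak intervals.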
